A study of Homo sapiens with 2 samples.

Results

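The forkhead box (FOX) transcription factors are a family of DNA-binding proteins, described here in H1 human embryonic stem cells on their way to blood. Members were taken as every protein-coding gene whose symbol is FOX, a letter from A to S and a number, with an optional L and number, which gave 50 genes in the RefSeq gene table. Of these, 14 were in neither deposited table, and the tables together listed 18518 genes. Antisense genes, pseudogenes, FOXRED genes and FOXO3B, whose symbol does not have this form, were left out. The rule used no measured value.

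RNA was sequenced from 2 libraries, 1 from H1 cells labelled MEIS1-/- and 1 from wild-type H1 cells. H1 is a long-established line of human embryonic stem cells. MEIS1 encodes a homeodomain transcription factor that partners HOX and PBX proteins. Both lines were given 40 ng/ml activin A with 50 ng/ml BMP4 over 2 days, followed by 40 ng/ml VEGF with 50 ng/ml bFGF over another 2 days. The samples are labelled day 3, which falls within the second step, so how much of it the cells had received is not given in the sources used here. The sources used here did not give the deleted part of MEIS1, the number of clones or cultures, or whether the libraries kept strand.

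All FOX proteins bind DNA through a winged-helix domain of about the same fold, and they differ in the partners and signals they answer. FOXH1 carries activated SMAD proteins to genes of Nodal and activin signalling, FOXA proteins open chromatin at endoderm genes, and FOXC and FOXF proteins act in mesoderm and the vessels that form from it. FOXO proteins are held out of the nucleus by AKT kinases, and FOXM1 drives genes of late cell division.

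The library labelled MEIS1 deleted held 5296397 estimated counts and the wild-type library 5202847. Ratios are given as deleted over wild type after scaling for depth, with a pseudocount of 1, and each is followed by its exact 95% counting interval. The interval covers counting error only, and with 1 library per genotype no test between genotypes was possible, so that each difference is between these libraries. A gene is called higher or lower where its interval excluded 1. MEIS1 itself (gene 4211, chromosome 2) had 68 counts in the library labelled deleted and 89 in wild type, a ratio of 0.759 (0.543 to 1.05), so its level did not check the genotype label.

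Of the 50 FOX genes, 24 had at least 10 counts in 1 library or more and are called measured. Among these, 4 were higher in the library labelled deleted (FOXF1, FOXQ1, FOXD1 and FOXK2) and 9 were lower (FOXH1, FOXC1, FOXF2, FOXI3, FOXP4, FOXJ2, FOXJ3, FOXN3 and FOXM1). The remaining 11 had an interval that included 1. Across all 14381 genes measured in the same way, 15.4% were higher and 14.7% lower, against 16.7% and 37.5% of the FOX genes. Both directions together held 54.2% of the FOX genes and 30.1% of all measured genes. At least 2-fold differences were found for 3 FOX genes in the higher direction (12.5%, against 2.90% of all measured genes) and for 2 in the lower (8.33%, against 2.95%), or 20.8% in either direction, against 5.85%. From FPKM, with 1 added to each value, FOXF1 (log2 ratio 0.92), FOXD1 (0.92) and FOXF2 (-0.94) were under 2-fold, which left 1 FOX gene in each direction, FOXQ1 and FOXI3. With 0.1 added in place of 1, FPKM gave 3 FOX genes higher and 2 lower, the same as the counts, so the loss depends on the added value. The median log2 ratio was -0.18 over the measured FOX genes and 0.0032 over all measured genes, and the FOX median was -0.027 with a minimum of 1 count. The FOX genes together had 5228 counts in the library labelled deleted and 5561 in wild type, a ratio of 0.930 (0.896 to 0.966).

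**Figure D1:**
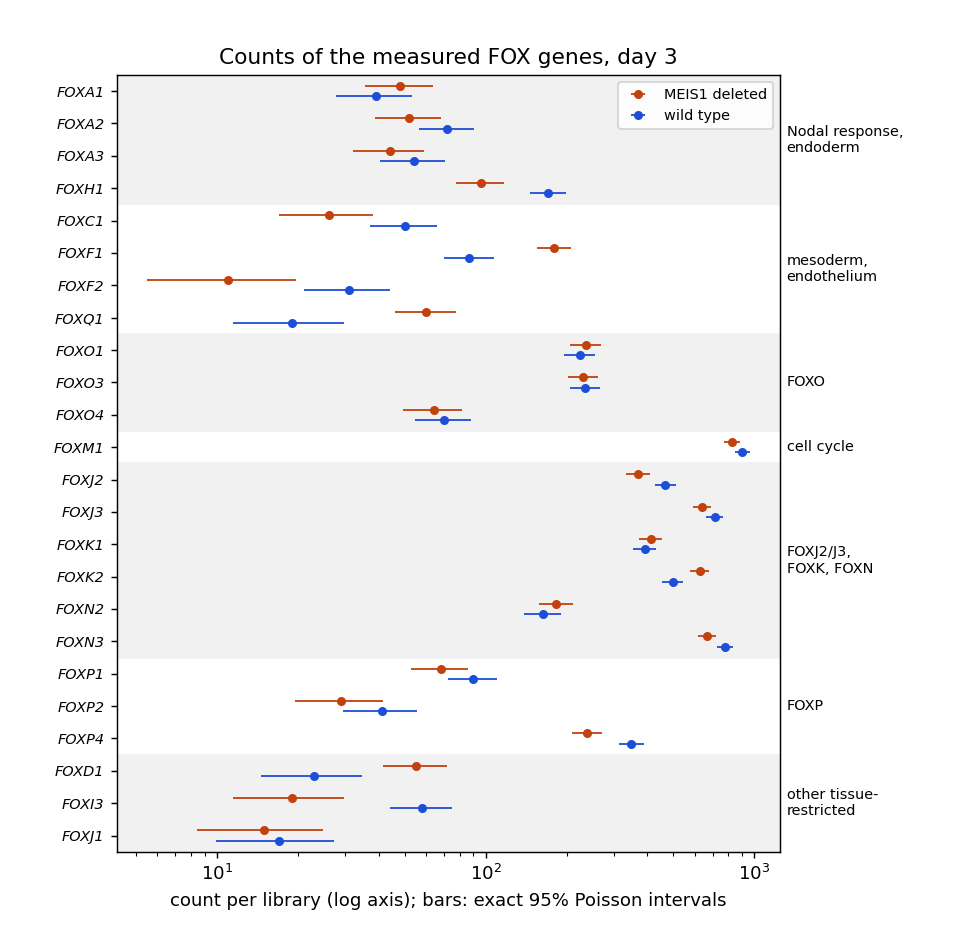
Counts of the 24 measured FOX genes on a log axis, in the library labelled MEIS1 deleted (orange) and in wild type (blue), with exact 95% Poisson intervals and the genes grouped by role. FOXM1 had the highest count in both libraries (824 and 902), and the 2 libraries stand farthest apart for FOXQ1, FOXI3 and FOXF2.

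Levels between genes were compared on the deposited FPKM values, which are scaled for gene length. FOXM1 was the most abundant FOX transcript in both libraries, at 43.61 FPKM in the library labelled deleted and 48.82 FPKM in wild type. FOXJ3, FOXK2, FOXN3 and FOXJ2, all expressed in many tissues, came next in wild type. With FOXM1 these 5 genes held 56.0% of the summed FOX FPKM in both libraries. FOXF1, at 13.19 FPKM in the library labelled deleted and 6.49 FPKM in wild type, ranked 5 and 11 among the 24 measured FOX genes. FOXI3 ranked 18 in the library labelled deleted (2.88 FPKM) and 8 in wild type (8.96 FPKM), and FOXH1 ranked 7 (8.29 FPKM) and 6 (15.04 FPKM).

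Markers of other cell types also differed between these libraries, and in bulk RNA fewer cells of a type cannot be told apart from less RNA per cell. Summed levels below run over all members of a list, those under 10 counts included. All 6 measured of 8 primitive streak markers were lower in the library labelled deleted, with a summed level of 34.0 FPKM against 129 FPKM in wild type. The 7 measured of 8 endothelial markers were all higher, with 526 FPKM in the library labelled deleted and 342 FPKM in wild type. Of 8 pluripotency markers, 5 of the 7 measured were lower and none higher (327 FPKM and 502 FPKM). Definitive endoderm markers summed to 153 FPKM and 152 FPKM, with 1 of 7 measured higher and 2 lower. Without APOA1, which had 51.93 FPKM in the library labelled deleted and 18.06 FPKM in wild type, that sum was 101.0 FPKM and 134 FPKM, lower in the library labelled deleted. Lateral plate mesoderm markers summed to 632 FPKM and 564 FPKM, with 4 of 6 higher and 1 lower. Of 8 blood markers only 4 were measured, 2 of them higher, and they summed to 28.99 FPKM and 8.93 FPKM. The globin gene HBZ was listed in neither library. Of 5 neural ectoderm markers all 3 measured had ratios under 1 and 1 was called lower, with 123 FPKM and 140 FPKM, and SOX1 was listed in neither. Amnion and trophoblast markers summed to 149 FPKM and 140 FPKM (2 of 7 higher, 4 lower). Without IGFBP3, at 58.25 FPKM and 15.85 FPKM, that sum was 90.4 FPKM in the library labelled deleted and 124 FPKM in wild type. These 2 genes were left out after their values were seen, as the members of their lists that differed most, and for the other 7 marker lists the same step did not turn the direction of the sum. Fibroblast and smooth muscle markers summed to 566 FPKM and 464 FPKM (3 of 5 measured higher, 2 lower), and DCN was listed in neither. The part of these marker differences in the FOX values was not tested.

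FOXH1 (gene 8928, chromosome 8), the SMAD partner in Nodal signalling, was lower in the library labelled deleted. It had 96 counts there and 171 in wild type, a ratio of 0.558 (0.428 to 0.718) and a log2 ratio of -0.84. The Poisson intervals of the 2 counts, 77.8 to 117 and 146 to 199, did not overlap. Of 14 partners and target genes of FOXH1, 12 were measured, with 2 higher, 5 lower and 5 whose interval included 1, and a median log2 ratio of -0.31. The SMAD partners were close to even or higher. SMAD2 had 710 counts in the library labelled deleted and 733 in wild type (0.959, 0.863 to 1.06), and SMAD3 334 and 257 (1.29, 1.09 to 1.52). The target genes held the low values. EOMES, needed by cells leaving the streak for mesoderm and endoderm, had 211 counts in the library labelled deleted and 867 in wild type, and CER1, a secreted NODAL inhibitor, 31 and 136. LHX1 had 217 and 812 counts, and CRIPTO, the NODAL co-receptor, 729 and 1325. Several of these genes are also on the primitive streak marker list.

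The FOXA genes, pioneer factors of endoderm, had low counts and none was called. FOXA2, which in mouse also marks the node and anterior streak, had 52 counts in the library labelled deleted and 72 in wild type (0.719, 0.490 to 1.04). FOXA3 had 44 and 54 counts (0.810, 0.529 to 1.22). FOXA1 had 48 and 39 counts (1.21, 0.782 to 1.91), so the 3 ratios lay on both sides of 1 and all 3 intervals included it. LINC00261, a long noncoding RNA next to FOXA2, had 151 counts in the library labelled deleted and 117 in wild type (1.27, 0.997 to 1.64). Of 13 endoderm genes tied to FOXA factors 11 were measured, with 2 higher, 4 lower and 5 that included 1 (median log2 ratio -0.17). HHEX, a homeobox gene of early endoderm and also of blood and endothelial precursors, had 105 counts in the library labelled deleted and 40 in wild type, a ratio of 2.56 (1.79 to 3.84). The apolipoprotein gene APOA1 had 240 and 82 counts, and the repressor gene PRDM1 331 and 563 counts (0.583, 0.506 to 0.668). FOXD3, a factor known from stem cells and neural crest, was listed in neither library.

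**Figure D2:**
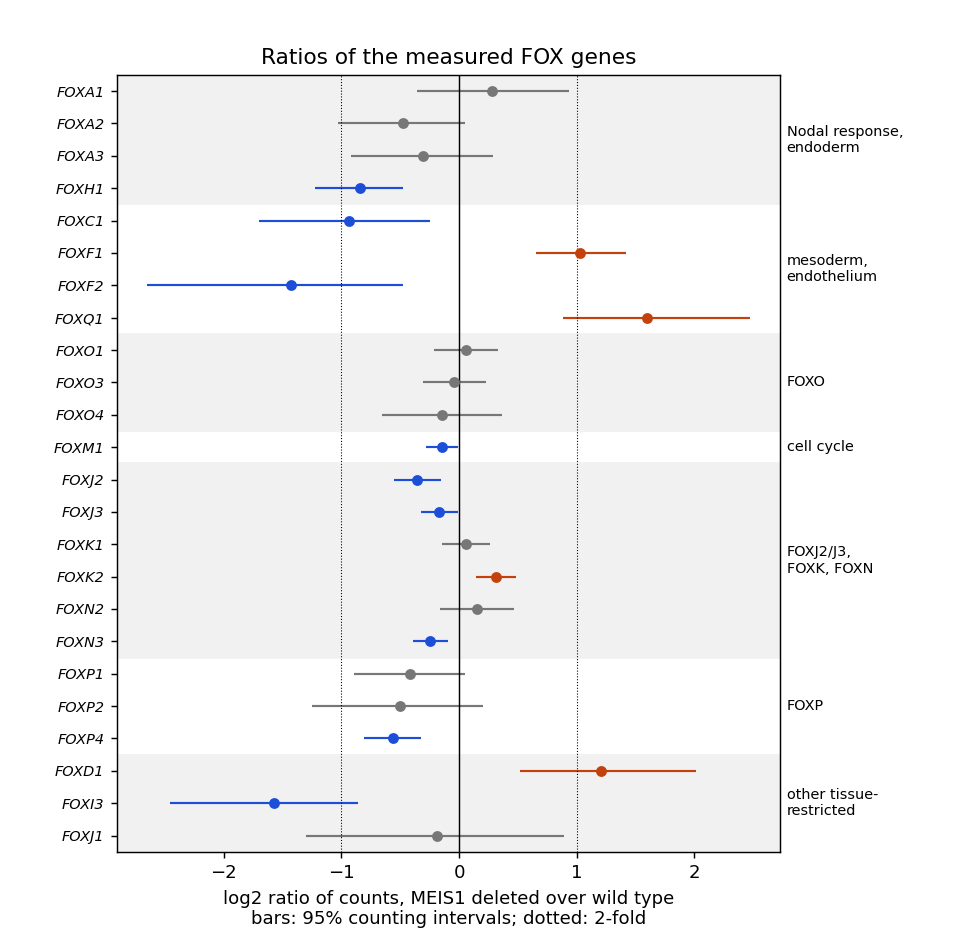
Log2 ratios of counts, MEIS1 deleted over wild type, for the 24 measured FOX genes, with 95% counting intervals. Orange genes were higher (4), blue genes lower (9) and grey genes had an interval that included 1 (11), and dotted lines mark a 2-fold difference.

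The FOX genes of mesoderm and endothelium differed in both directions. FOXF1 (gene 2294, chromosome 16), which acts in lateral plate and extraembryonic mesoderm, had 180 counts in the library labelled deleted and 87 in wild type. Its ratio was 2.04 (1.58 to 2.68), close to the 2-fold line. FOXF2 (gene 2295, chromosome 6), its close relative, had 11 and 31 counts, a ratio of 0.371 (0.159 to 0.718). The intervals of FOXF1 and FOXF2 thus lay on opposite sides of 1, with FOXF1 the more abundant in both libraries (13.19 and 6.49 FPKM, against 0.95 and 2.73 FPKM for FOXF2). FOXC1 (gene 2296, chromosome 6), a factor of paraxial mesoderm, vessels and eye, had 26 counts in the library labelled deleted and 50 in wild type (0.524, 0.308 to 0.843). FOXC2, which overlaps FOXC1 in function in mouse, stayed under the minimum, with 7 and 3 counts.

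FOXQ1 (gene 94234, chromosome 6), known from hair and from epithelial tumours, had the largest ratio of the higher FOX genes. It had 60 counts in the library labelled deleted and 19 in wild type, a ratio of 3.02 (1.84 to 5.55). FOXQ1, FOXF2 and FOXC1 are neighbours on chromosome 6 in this order, and the interval of FOXQ1 lay above 1 while those of FOXF2 and FOXC1 lay below it. The next protein-coding genes listed in these tables on either side had intervals that included 1, with 327 counts for EXOC2 in the library labelled deleted and 359 in wild type (0.902, 0.774 to 1.05), and 47 and 40 for GMDS (1.16, 0.747 to 1.82). Counts were low for the genes that follow on each side. IRF4 had 11 and 4 counts (2.38, 0.806 to 11.7), and MYLK4, a kinase gene beyond GMDS, was lower with 5 counts in the library labelled deleted and 16 in wild type (0.349, 0.0886 to 0.884), so a ratio as low as those of FOXF2 and FOXC1 was also found outside the FOX genes there.

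A second group of neighbours lies on chromosome 16, where FENDRR, FOXF1, FOXC2 and FOXL1 follow each other with few genes between them. FENDRR, a long noncoding RNA gene transcribed away from the FOXF1 start, had 33 counts in the library labelled deleted and 7 in wild type (4.21, 2.03 to 12.5), so it was higher together with FOXF1. Its counts were not whole in the deposited tables (32.77 and 7.45), as estimated counts are where reads are divided between genes, and neither library is known to keep strand. FOXL1, a gene of gut mesenchyme, had 6 and 1 counts. MTHFSD, which lies between FOXF1 and FOXC2, had 77 counts in the library labelled deleted and 63 in wild type (1.21, 0.856 to 1.72). Of 16 noncoding and other neighbours of FOX genes, 8 were listed in neither library and 5 were measured, of which FENDRR was higher and 4 included 1.

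**Figure D3:**
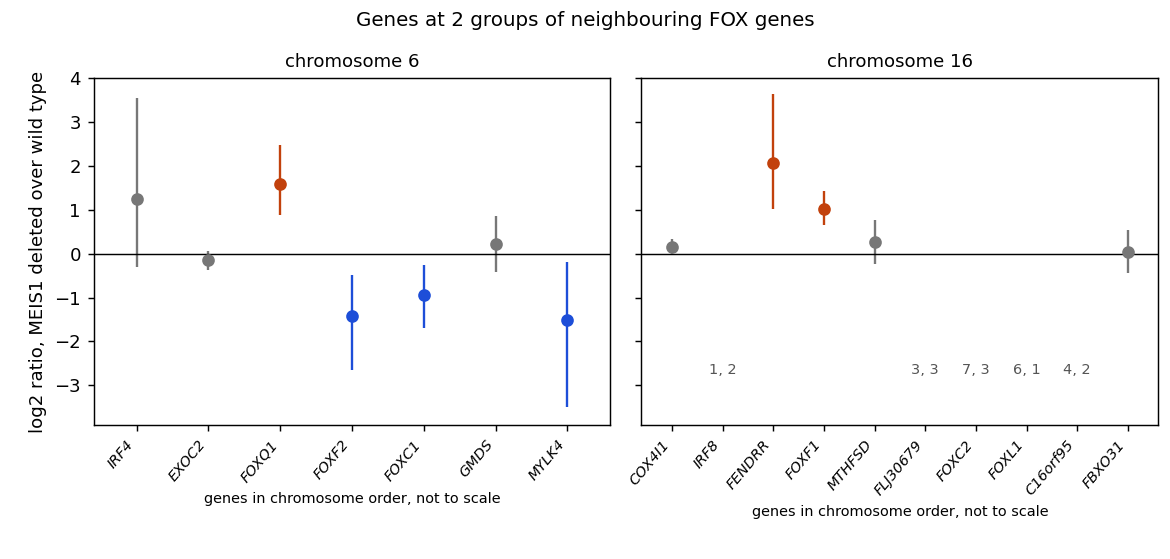
Log2 ratios with 95% counting intervals for genes at the 2 groups of neighbouring FOX genes, in chromosome order but not to scale, with FOX genes and the 2 nearest protein-coding genes listed in the tables on each side. Numbers at the foot are counts in the library labelled MEIS1 deleted and in wild type for genes under 10 counts in both. On chromosome 6 FOXQ1 stands above 0 and FOXF2, FOXC1 and MYLK4 below it, and on chromosome 16 FENDRR and FOXF1 stand above 0.

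Promoter sequences from RefSeq (build GRCh38.p14) were found for 39 of the 50 FOX genes, and those of 5 genes with large ratios are shown because 3 of them are neighbours that differed in opposite directions. Each line gives the 250 bases before the gene start, 5′ to 3′ on the gene's own strand, and capitals mark the motifs searched on both strands. The forkhead motif was searched as TGTTTAC. A core of the sites that MEIS proteins bind was searched as TGACAG, and a site of SMAD proteins as CAGACA. The GC box, which Sp factors bind in many promoters, was searched as GGGCGG, and the other common promoter box was CCAAT. FOXQ1 lies at chr6:1311848-1312097 (plus strand), FOXF2 at chr6:1389326-1389575 (plus), FOXC1 at chr6:1609665-1609914 (plus), FOXD1 at chr5:73448778-73449027 (minus) and FOXI3 at chr2:88452694-88452943 (minus).
FOXQ1: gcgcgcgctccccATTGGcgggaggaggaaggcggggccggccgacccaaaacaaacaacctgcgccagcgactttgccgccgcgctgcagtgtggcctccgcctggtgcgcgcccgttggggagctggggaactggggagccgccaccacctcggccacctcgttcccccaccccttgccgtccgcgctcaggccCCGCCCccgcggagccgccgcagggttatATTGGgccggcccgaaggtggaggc
FOXF2: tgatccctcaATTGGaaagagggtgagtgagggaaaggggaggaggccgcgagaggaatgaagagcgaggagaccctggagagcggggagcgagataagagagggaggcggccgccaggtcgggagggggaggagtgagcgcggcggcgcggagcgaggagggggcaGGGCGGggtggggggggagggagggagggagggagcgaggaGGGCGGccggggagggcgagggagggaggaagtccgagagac
FOXC1: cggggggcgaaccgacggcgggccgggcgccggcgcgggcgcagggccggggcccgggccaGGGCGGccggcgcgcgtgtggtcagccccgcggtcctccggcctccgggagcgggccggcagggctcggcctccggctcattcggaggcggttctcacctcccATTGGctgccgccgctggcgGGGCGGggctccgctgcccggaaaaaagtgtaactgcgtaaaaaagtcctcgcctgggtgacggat
FOXD1: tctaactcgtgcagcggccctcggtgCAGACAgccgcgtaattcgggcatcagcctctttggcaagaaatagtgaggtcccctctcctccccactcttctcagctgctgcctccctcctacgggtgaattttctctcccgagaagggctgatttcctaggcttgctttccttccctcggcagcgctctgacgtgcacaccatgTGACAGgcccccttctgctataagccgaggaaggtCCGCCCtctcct
FOXI3: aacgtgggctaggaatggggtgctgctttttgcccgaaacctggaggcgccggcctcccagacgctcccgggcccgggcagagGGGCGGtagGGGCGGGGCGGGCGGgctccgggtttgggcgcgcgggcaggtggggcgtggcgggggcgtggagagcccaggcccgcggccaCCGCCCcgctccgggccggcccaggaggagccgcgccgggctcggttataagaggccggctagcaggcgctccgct

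The 3 neighbours on chromosome 6 held GC and CCAAT boxes and none of the forkhead, MEIS or SMAD motifs in the exact letters searched. Other forms of these motifs were not searched, so such sites may be present. The GC and CCAAT boxes were searched in addition to the planned motifs. They are common in promoters, so they cannot tell the directions of the 3 genes apart. FOXQ1 had 1 GC box and 2 CCAAT boxes, FOXF2 2 GC boxes and 1 CCAAT box, and FOXC1 2 GC boxes and 1 CCAAT box. Their GC content was 74.0%, 70.8% and 76.8%, and that of FOXI3, with 5 GC boxes of which 3 run into each other, was 77.2%. FOXD1, at 58.8% GC, held a MEIS motif 47 to 42 bases before its start, a SMAD motif 224 to 219 bases before it and 1 GC box. The forkhead motif was in none of the 5 windows shown. Over all 35116 promoters of this length, 2.98% held the forkhead motif, 13.03% the MEIS motif, 13.6% the SMAD motif, 42.6% a GC box and 32.0% a CCAAT box. Over the 50 promoter sequences of FOX genes, some of which belong to the same gene, the shares were 2%, 6%, 16%, 62% and 24% in the same order, and the median GC content was 67.0%, against 58.0% over all promoters. A match is a description of the letters and not a bound site.

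Genes tied to FOXC and FOXF factors in mesoderm differed in both directions, with more higher than lower in the library labelled deleted. Endothelial genes with joint FOX and ETS enhancers were mostly higher there. Of 21 FOXC and FOXF mesoderm genes 17 were measured, with 9 higher, 5 lower and 3 that included 1 (median log2 ratio 0.26). TBX6 was lower, with 8 counts in the library labelled deleted and 28 in wild type (0.307, 0.111 to 0.637). MEOX1 and TCF15 were listed in neither library, and like TBX6 were named after their values were seen. HAND2, a factor of lateral plate and heart, had 267 counts in the library labelled deleted and 63 in wild type, and CXCL12, the chemokine that signals to CXCR4, 66 and 33. WNT5A had 626 and 932 counts (0.665, 0.600 to 0.736), and GLI1, a hedgehog effector and target upstream of FOXF1 in mouse, 10 and 28 counts (0.375, 0.153 to 0.750). Of the 12 FOX and ETS enhancer genes 10 were higher, 1 lower and 1 included 1 (median 0.79). MEF2C had 127 and 29 counts, CDH5 (VE-cadherin) 410 and 104, and PECAM1 226 and 41. ETV2, the ETS factor that starts the endothelial programme, was the lower one, with 14 counts in the library labelled deleted and 72 in wild type. CDH5 and PECAM1 are among the genes here that are also on the endothelial marker list above, and HAND2 is also on the lateral plate mesoderm list. MEF2C and ETV2 are on none of the marker lists.

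Among FOX genes known from other tissues, FOXD1 was higher and FOXI3 lower. FOXD1 (gene 2297, chromosome 5), which marks kidney stroma and part of the retina, had 55 counts in the library labelled deleted and 23 in wild type, a ratio of 2.31 (1.43 to 4.04). FOXI3 (gene 344167, chromosome 2), a gene of ectodermal placodes and pharyngeal arches, had 19 and 58 counts, a ratio of 0.335 (0.182 to 0.552). It was the lowest ratio of the measured FOX genes. Its deposited wild-type count of 57.97 was not whole, and neither was that of its relative FOXI2, at 2.03. FOXJ1, which drives motile cilia, had 15 and 17 counts (0.880, 0.406 to 1.86). Beside these genes, the measured neural markers above had ratios under 1 and the amnion markers went both ways, and their part in these values was not tested.

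The FOXO genes, the arm of the family under insulin and AKT control, were almost even. FOXO1 had 236 counts in the library labelled deleted and 224 in wild type (1.04, 0.865 to 1.26), FOXO3 231 and 235 (0.973, 0.808 to 1.17) and FOXO4 64 and 70 (0.906, 0.634 to 1.29). The interval of FOXO1 excludes a difference of more than 1.26-fold upwards by counting error. FOXO3 shares reads with its near copy FOXO3B, whose counts of 191.78 and 170.14 were not whole, and summed they gave 423 and 406 counts (1.03, 0.898 to 1.18). FOXO6 was listed in neither library.

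Regulators of FOXO proteins were split, with 7 of 23 higher, 7 lower and 9 that included 1 (median 0.042). The lower ones with the largest ratios were signalling kinase genes and their partners. MAPK8 had 125 counts in the library labelled deleted and 181 in wild type (0.685, 0.540 to 0.863), SGK1, a kinase that acts on FOXO like AKT, 330 and 454 (0.720, 0.622 to 0.831), PIK3R1 312 and 406, and PIK3CB 143 and 187. FOXO target genes were split likewise, with 6 of 21 measured higher, 4 lower and 11 that included 1 (median 0.033), out of 26. PDK4, a mitochondrial kinase induced by FOXO in fasting, had 61 and 157 counts, a ratio of 0.388 (0.281 to 0.520). TXNIP, an inhibitor of glucose uptake, had 141 counts in the library labelled deleted and 74 in wild type (1.87, 1.41 to 2.53), CCNG2 283 and 449, and INSR, the insulin receptor, 78 and 115. The 2 best-known cell cycle targets were higher, CDKN1A with 645 and 542 counts and CDKN1B with 174 and 127 (they and GLI1, SMAD2 and SMAD3 were chosen after their values were seen).

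FOXM1, the driver of G2 and M phase genes, had 824 counts in the library labelled deleted and 902 in wild type, a ratio of 0.904 (0.822 to 0.995). The upper end of its interval became 1.005 with DESeq2 size factors, so the call rests on the scaling. Of 18 FOXM1 target genes 2 were higher, 1 lower and 15 included 1, with a median log2 ratio of -0.0040. CENPF had 2157 and 1798 counts (1.19, 1.11 to 1.26), MKI67 2820 and 2593 (1.08, 1.02 to 1.14) and CDC25C 104 and 151 (0.684, 0.526 to 0.881). Of the 6 partners of FOXM1 in the MuvB complex and MYBL2, 1 was lower (RBBP4, 2645 and 2854 counts) and 5 included 1.

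The broadly expressed FOXJ, FOXK and FOXN genes had high counts and small differences. FOXK2, which binds the BAP1 complex, had 626 counts in the library labelled deleted and 498 in wild type (1.24, 1.10 to 1.40), and FOXK1 411 and 391 (1.04, 0.904 to 1.198). The ratios of FOXK1 and FOXK2 were within 1.3-fold of even, though the interval of FOXK2 reached 1.40. Of the 9 partners of FOXK1 and FOXK2, 4 were lower, none higher and 5 included 1 (median -0.13). HCFC1 had 1181 and 1419 counts, SIN3A 566 and 673, DVL3 800 and 924, and BAP1 374 and 429 counts in the library labelled deleted and in wild type. FOXN3, a checkpoint repressor, had 665 and 779 counts (0.845, 0.761 to 0.938), and its relative FOXN2 183 and 163 (1.11, 0.895 to 1.38). FOXJ2 had 369 and 467 counts (0.782, 0.680 to 0.898), and FOXJ3 641 and 713 (0.890, 0.798 to 0.991). The upper end for FOXJ3 became 1.002 with DESeq2 size factors, so that its call was lost.

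The 3 measured FOXP genes, repressors that pair through a leucine zipper, all had ratios under 1. FOXP4 was called lower, with 238 counts in the library labelled deleted and 349 in wild type (0.676, 0.570 to 0.798). FOXP1 had 68 and 90 counts (0.750, 0.538 to 1.04) and FOXP2 29 and 41 (0.707, 0.420 to 1.15). For FOXP2 the deposited gene length, a mean over its transcripts, was 3447 bases in the library labelled deleted and 4729 bases in wild type, and its level of 1.58 FPKM against 1.66 FPKM differed less than its counts. FOXP1 lengths were 6638 and 6939 bases. FOXP3, the regulatory T cell factor, had 4 and 2 counts. Of 11 FOXP genes and co-repressor partners 1 was higher (CHD4, 3342 and 3016 counts), 1 lower (FOXP4) and 9 included 1 (median -0.020).

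Measured FOX genes with few exons had larger differences and lower counts than those with many. Of the measured members, 14 had at most 4 exons in any protein-coding transcript of GENCODE 29, among them FOXQ1, FOXD1 and FOXC1 with a single exon, and 10 had 7 to 22 exons. In the first set 7 of 14 differed by at least 1.5-fold in either direction and the median fold either way was 1.58. In the second 0 of 10 did, with a median of 1.21 and a largest fold of 1.48, that of FOXP4. The sets also differed in depth, with a median larger count of 59 in the first set and 439 in the second, and the part of depth in the folds was not tested. Where 1 library or both held 50 counts or more, the median fold either way was 1.26 for 20 FOX genes and 1.13 for 10865 genes. This grouping by exons was chosen after the values were seen.

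**Figure D4:**
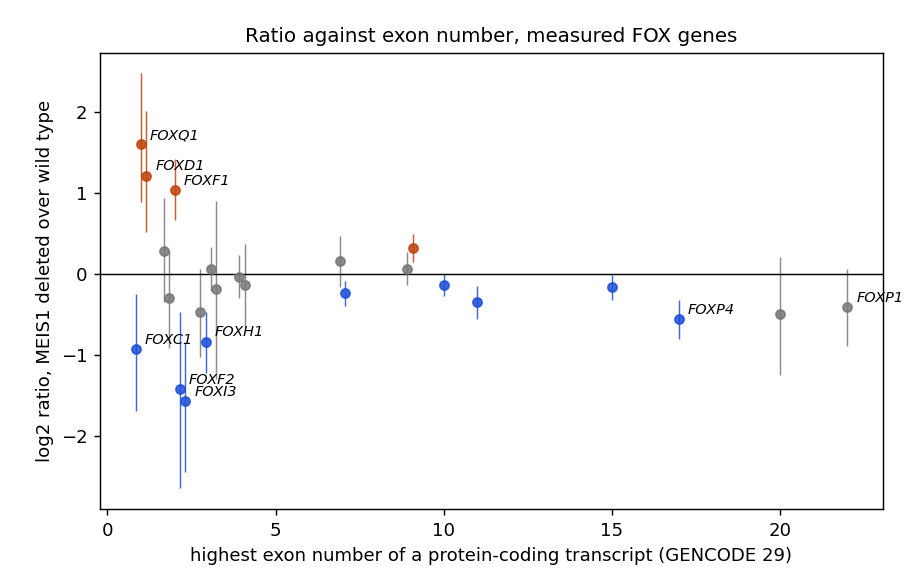
Log2 ratio with its 95% counting interval against the highest exon number of a protein-coding transcript, for the 24 measured FOX genes, with points of equal exon number set slightly apart. The 5 genes past 2-fold all have 1 or 2 exons, and the genes with 7 or more exons stay within 1.48-fold.

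**Figure D5:**
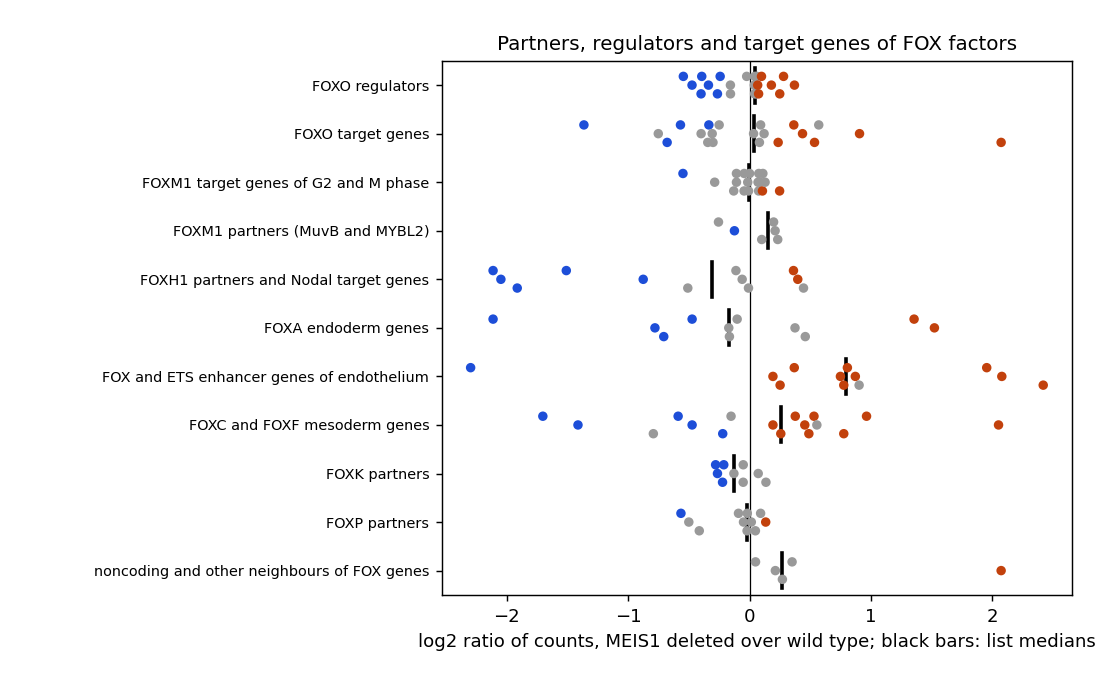
Log2 ratios of the measured members of 11 lists of FOX partners, regulators, targets and neighbours, with orange for higher, blue for lower and grey for an interval that included 1. Black bars are list medians, from -0.31 for FOXH1 partners and Nodal targets to 0.79 for FOX and ETS enhancer genes.

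The other 26 FOX genes had fewer than 10 counts in both libraries. Of these 14 were listed in neither (FOXB1, FOXD3, FOXD4, FOXD4L3, FOXD4L6, FOXE1, FOXE3, FOXI1, FOXL3, FOXN1, FOXN4, FOXO6, FOXR1 and FOXR2), where a count of 0 allows up to 3 counts as a one-sided 95% bound, or 0.566 CPM in the library labelled deleted and 0.577 CPM in wild type. The other 12 had at most 8 counts. FOXL2, an ovarian factor, had 8 counts in the library labelled deleted and 5 in wild type, FOXD2 3 and 0, and FOXI2 0 and 2 (2.03 before rounding). FOXB2 had 1 and 0 counts, FOXS1 1 and 1, FOXD4L1 0 and 1, FOXD4L4 1 and 1, and FOXD4L5 1 and 0. The FOXD4 copies are near-identical, so the split of their reads is uncertain. Summed, the 26 genes had 37 counts in the library labelled deleted and 18 in wild type, too few to compare gene by gene.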

How the data were processed

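Per the labels' protocols, an Illumina TruSeq kit was used on 2 µg of RNA. The authors deposited, for each gene, an expected count, which is an estimated count that need not be whole, and an FPKM value scaled for gene length and depth. The submitters' processing notes name BWA, Bowtie, RSEM and hg19 without versions. The design text also names TopHat with Cufflinks. The order of these steps is not given in the sources used here.

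A gene absent from 1 table was set to 0. Gene numbers were matched to a RefSeq table of GRCh38.p14 (18413 of 18518), used for names, gene order and promoters. Unmatched numbers held 0.193% of all counts (deleted) and 0.181% (wild type). Expected counts were rounded, and 69.9% and 69.4% of them were whole within 0.005. Depth was scaled with edgeR 4.0.16 (R 4.3.3) by TMM, whose effective sizes stood in a ratio of 1.0104 (deleted over wild type). Intervals are exact Clopper-Pearson 95% intervals computed from both counts given their total, with no pseudocount. They cover counting error only, since each genotype had 1 library. PCR copies are not independent molecules, so the intervals may be too narrow even for counting error. No model was fitted. The computation was tested on simulated data.

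Named genes were all FOX members and, from each list, up to 4 genes with the largest ratios among those with at least 50 counts and an interval that excluded 1. Genes outside this rule are neighbours, partners, markers listed in neither library or marked in the text. Single values of a few genes are not reported here. Members and lists were chosen with earlier results of these data known. Alternatives were other scalings, minimum counts, pseudocounts, folds, unrounded counts and FPKM.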

Additional observations from a re-analysis of the deposited data

How the results depend on the processing

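With 1 library per genotype, differences between cultures cannot be told apart from the genotype. No paired analysis was possible because each genotype had 1 library, and for the same reason no replicate could be left out. For single measured FOX genes, 230 of 230 values under the alternatives stayed within the main counting interval and 0 changed sign. A minimum count or the limit to whole counts cannot move the ratio of a single gene. The other settings reuse the same 2 libraries and mostly shift ratios little, so this outcome was largely fixed in advance. The main counts of FOX genes at least 2-fold higher and lower, 3 and 2, became 1 and 1 from FPKM with a pseudocount of 1, and 0 and 0 at 4-fold. They stayed at 3 and 2 from FPKM with a pseudocount of 0.1. The lower count was 4 at 1.5-fold, 1 with a minimum of 50 counts and 1 among members with whole counts, where the number with an interval below 1 was 5 in place of 9, since fewer genes were compared. That number was 7 with DESeq2 size factors, which moved every log2 ratio by 0.015. The FOX median log2 ratio was -0.027 with a minimum of 1 count. Over all genes, 417 were at least 2-fold higher and 424 lower. These counts were 182 and 183 from FPKM with a pseudocount of 1, and 483 and 490 with a pseudocount of 0.1. They were 161 and 171 with a minimum of 50 counts, 827 and 893 at 1.5-fold, and 111 and 81 at 4-fold. FPKM gave no counting interval.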
